A study of Mus musculus with 12 samples.

Results

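A set of 10 cadherin genes was examined in the H3K27ac peak lists of embryonic mouse cortex: Cdh2, Cdh4, Cdh6, Cdh7, Cdh8, Cdh9, Cdh10, Cdh11, Cdh12 and Cdh13. They were chosen by name, with earlier results of these data known, as 10 of the 21887 protein-coding genes placed on the main chromosomes. Each was read over its gene body plus 20 kb on either side. All 10 were found in the gene table, and 9 of them entered the test, which 15359 genes did in all. H3K27ac, acetylation of lysine 27 of histone H3, marks active promoters and enhancers and was mapped here by native chromatin immunoprecipitation and sequencing from whole cortex at E15.5, the stage in days of gestation. There were 3 wild-type (WT) libraries, of genotype Prdm16 flox/flox, and 3 conditional knockout (cKO) libraries, of genotype Emx1Ires-Cre; Prdm16flox/flox. The floxed allele was thus carried by both groups, and Cre only by the cKO. Cre driven from the Emx1 gene acts in the dorsal forebrain lineage, so cells of other origin in the dissected cortex keep Prdm16. The sources used here do not say how many embryos went into a library, or whether libraries of a genotype came from separate embryos, so the p-values measure the spread between these libraries, which may be technical.

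Classical cadherins are calcium-dependent adhesion proteins that bind cadherins on the neighbouring cell through their extracellular repeats and hold on to the actin cytoskeleton through catenins bound to their cytoplasmic tail. Type I members include N-cadherin (Cdh2), which forms the adherens junctions that join radial glia at the ventricular surface, and R-cadherin (Cdh4). Cdh6 to Cdh12 are type II members, several of which are transcribed in particular areas, layers or circuits of the brain. Cdh13 (T-cadherin) has the extracellular repeats but is anchored in the membrane by a lipid and lacks the catenin-binding tail, so it is a classical cadherin in its ectodomain only. Prdm16 encodes a zinc-finger regulator of transcription that is made in radial glia.

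The lists held 66484, 75552 and 48160 peaks in WT replicates 1 to 3 and 59200, 58673 and 55007 in cKO replicates 1 to 3, and covered between 53.9 and 92.1 Mb. WT replicates 1 and 2 had the longest lists and WT replicate 3 the shortest. Peak lists carry no read counts, so the depth behind each value is unknown. For this reason every covered length below was scaled to the genome-wide total of its list and is given in scaled bp. Replicates 1 and 2 of both genotypes carry one library identifier in their peak names (4 libraries, set A) and replicate 3 of both carries another (2 libraries, set B). Of 12 marker genes of cortical progenitors and neurons, 11 had a peak within 2 kb of a gene end in all 6 libraries, against 6 of 8 for ventral interneurons, 3 of 6 for microglia, 2 of 7 for meninges and 1 of 7 for vessels. Gsx2 and Nkx2-1, Cx3cr1, Foxd1 and Aldh1a2, and Pecam1 and Tek were at 0 in all 6. The summed lengths at the vascular markers ran from 1545 to 2476 scaled bp in WT and 1228 to 1759 in cKO, and those at the meningeal markers from 2132 to 3961 and 1846 to 3391. At the microglial markers the sums were 1330 to 2760 in WT and 1664 to 2325 in cKO, at the ventral interneuron markers 24929 to 38262 and 30337 to 33348, and at the cortical markers 60549 to 93837 and 74132 to 82613. The genotypes overlapped for every marker list in these sums. Over gene windows, tested as the cadherin genes were, 0 marker genes passed by limma, where 0.69 percent of all genes tested did. The markers tested were 12 of 12 cortical, 6 of 8 ventral interneuron, 4 of 7 vascular, 3 of 6 microglial and 2 of 7 meningeal. With so few genes and so low a share, a count of 0 says little about cell composition. The vascular marker Pdgfrb had a log2 difference of -0.31 (limma adjusted p = 0.359). It was the only marker with an unadjusted p below 0.05, as 9.95 percent of all genes tested had. All 6 ventral interneuron markers tested were positive, with a median of 0.16, but the windows of Dlx1 and Dlx2 overlap. Of the 12 cortical markers 9 were positive, with a median of 0.06. Among all 15359 genes tested 10026 were positive, with a median of 0.05. The part of other cell types in the values below was not tested. In lysates of whole tissue, fewer cells of a type and less acetylation per cell cannot be told apart. The lists do not show the deleted exon, so the genotype labels were not checked from them.

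Promoter sequences were matched by symbol for 6 of the 10 genes (Cdh6, Cdh7, Cdh8, Cdh9, Cdh10 and Cdh12), with 3 start sites for Cdh7. The windows of 4 are printed because they span the range of base composition at starts that were acetylated in every library. Each is the 250 bases before the start, read 5′ to 3′ in the gene's direction from RefSeq on GRCm38.p6 (the assembly of mm10), in lower case with every CpG in capitals. They lie at chr1:109982650-109982899 on the plus strand (Cdh7, the first of its 3 starts), chr8:99416472-99416721 on the minus strand (Cdh8), chr15:16728665-16728914 on the plus strand (Cdh9) and chr15:18820079-18820328 on the plus strand (Cdh10).
Cdh7: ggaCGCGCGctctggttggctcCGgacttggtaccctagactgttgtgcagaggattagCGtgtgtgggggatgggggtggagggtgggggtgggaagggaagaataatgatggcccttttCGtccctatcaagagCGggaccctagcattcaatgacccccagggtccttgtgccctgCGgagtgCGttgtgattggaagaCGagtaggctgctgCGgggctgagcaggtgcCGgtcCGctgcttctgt
Cdh8: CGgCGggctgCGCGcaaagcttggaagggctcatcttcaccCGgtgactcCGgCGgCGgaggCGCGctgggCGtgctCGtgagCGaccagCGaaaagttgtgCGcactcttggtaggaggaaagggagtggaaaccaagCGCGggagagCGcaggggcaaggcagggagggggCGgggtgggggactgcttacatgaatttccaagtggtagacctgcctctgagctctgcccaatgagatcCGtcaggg
Cdh9: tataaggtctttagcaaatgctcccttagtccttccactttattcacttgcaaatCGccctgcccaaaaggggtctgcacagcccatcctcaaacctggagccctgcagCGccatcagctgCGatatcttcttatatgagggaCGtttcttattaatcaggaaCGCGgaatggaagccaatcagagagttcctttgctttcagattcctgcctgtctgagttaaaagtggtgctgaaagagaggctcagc
Cdh10: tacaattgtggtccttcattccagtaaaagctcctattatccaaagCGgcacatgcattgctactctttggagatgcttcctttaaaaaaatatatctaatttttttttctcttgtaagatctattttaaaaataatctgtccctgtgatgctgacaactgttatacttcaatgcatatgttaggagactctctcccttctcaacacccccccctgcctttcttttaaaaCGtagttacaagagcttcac

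The Cdh8 window held 20 CpGs at 64.4% G+C, more CpGs than 82.1% of the 32817 RefSeq windows of that length, and the Cdh7 window held 13 at 60.8%. The Cdh10 window held 2 CpGs at 36.8% G+C and the Cdh9 window 6 at 48.0%, against medians of 6 and 52.4% over all windows. The windows of Cdh6, Cdh12 and the second start of Cdh7 held 6, 7 and 17 CpGs. The first starts of all 6 genes and the second start of Cdh7 lay wholly under a peak in all 6 libraries. Of all windows, 40.8% had a peak in all 6 and 51.4% had none. Those shares count any peak in the window, and the share wholly covered is not given here. The third start of Cdh7, with 3 CpGs, was reached by a peak in 4 libraries and wholly covered in 3. On either strand, TATAAA (the TATA box, in 12.4% of all windows) and GACAAGATA (a motif of the related factor Mecom, in 0.107%) matched none of the 6 genes' windows. CAGATG (an E-box of proneural factors, in 14.5%) matched only the third start of Cdh7. These letters do not overlap one another, and a match or its lack says nothing of a factor's binding.

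Acetylation was spread unevenly over the family. Since the windows differ in length, levels were compared as the percent of the window under peaks, averaged over all 6 libraries. Cdh2 was highest, at 13.8% ± 1.21 (SD, n = 6), above 88.8% of the genes tested. Cdh11 (5.85% ± 0.319) and Cdh4 (5.53% ± 0.925) came next, near the middle of the genes tested, and their ranges overlapped. Cdh13 followed at 3.45% ± 0.344. Cdh8 (2.34% ± 0.208), Cdh6 (2.05% ± 0.325), Cdh10 (1.73% ± 0.322) and Cdh7 (1.01% ± 0.232) formed a run in which each gene's range over the libraries overlapped that of the next. Cdh12 (0.509% ± 0.0523) and Cdh9 (0.388% ± 0.0712) were lowest, overlapped each other and lay above 0.430% and 0.228% of the genes tested. The genes tested, 15359 of 21887, leave out every gene with a mean under 1000 bp, Cdh9 itself among them. These percentages are therefore not ranks among all genes, and genes with little or no coverage are missing from the comparison. Type I genes were thus in the upper part of the order and the type II genes, apart from Cdh11, in the lower part.

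**Figure D1:**
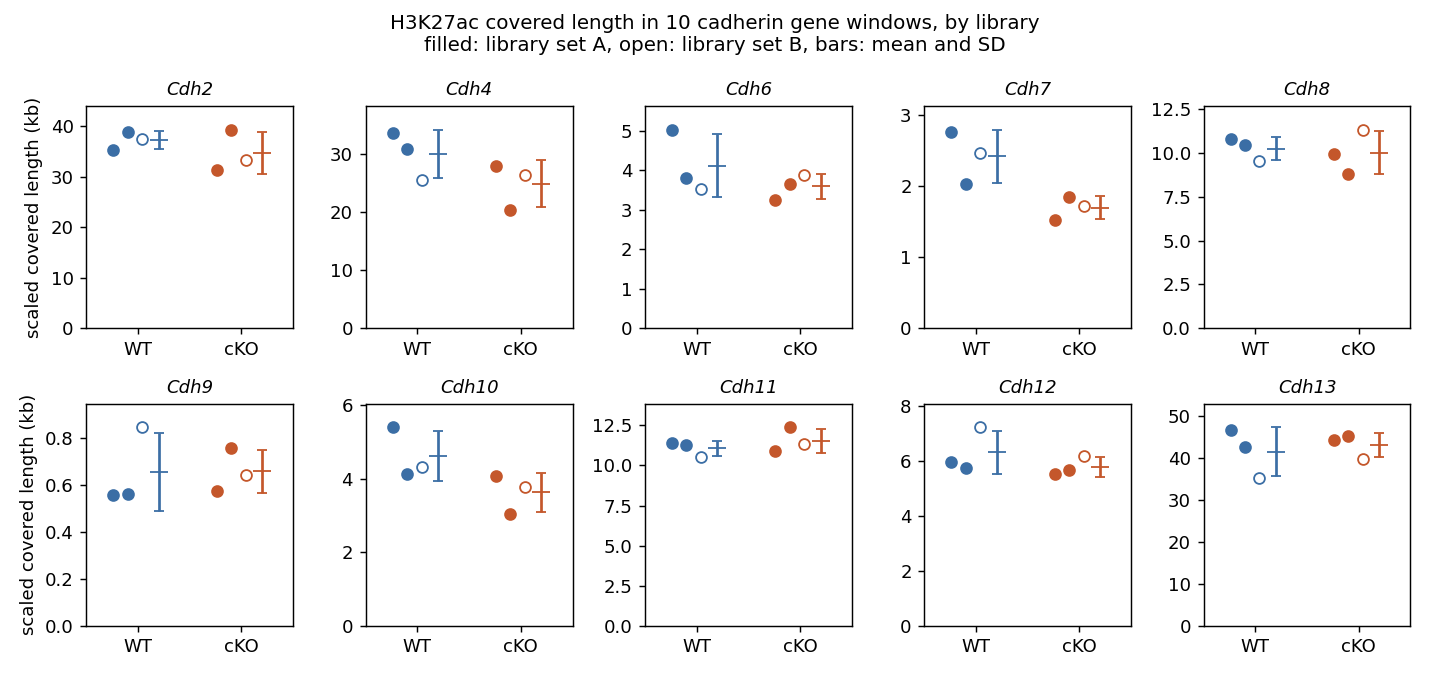
Scaled covered length (kb, vertical axis, from 0 and on a scale of its own in each panel) of the 10 gene windows in the 3 WT (blue) and 3 cKO (orange) libraries; filled points are replicates 1 and 2 (set A), open points replicate 3 (set B), and the bars give the mean and SD. The WT and cKO points are apart in Cdh7 and Cdh10 and interleave in the other 8 panels.

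None of the 10 genes passed the test between genotypes. By limma with Benjamini-Hochberg adjustment over all genes, 0 of the 9 genes tested had an adjusted p below 0.05, against 0.69 percent of all genes tested (106 genes, 57 longer and 49 shorter in cKO; 8 and 14 under quantile normalization, 1 and 0 with no scaling). At an unadjusted p below 0.05 there were 2, Cdh7 and Cdh10, both shorter in cKO, where all genes had 4.29 percent shorter, 5.66 percent longer and 9.95 percent in either direction. The same 2 were the genes whose groups did not overlap, against 4.54 percent of all genes for shorter and 7.08 percent for longer. The fitted differences of 7 of the 9 genes were negative, with a median of -0.11 (log2, cKO minus WT), while 34.7% of all genes were negative and their median was 0.05. The fits of all 9 genes were negative with no scaling, which moved the median of all genes to -0.05. Cdh7, Cdh10 and Cdh4 lay below the 5th percentile of all genes (-0.26), and the other 6 lay between it and the 95th (0.29).

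**Figure D2:**
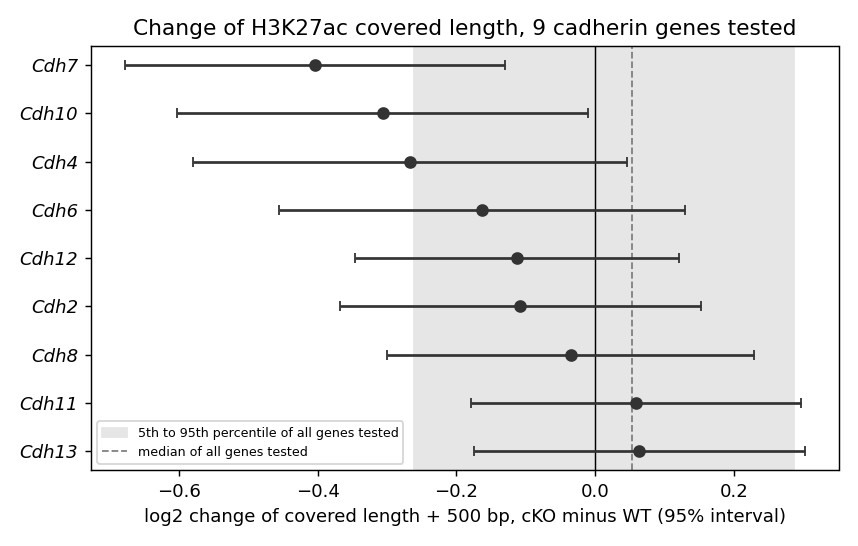
Difference in covered length, cKO minus WT, on the log2(scaled bp + 500) scale (horizontal axis) for the 9 cadherin genes tested, with the 95% interval of the limma fit; the grey band runs from the 5th to the 95th percentile of all genes tested and the dashed line is their median, 0.05. The intervals of Cdh7 and Cdh10 lie below 0, and the other 7 include it.

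Of the type I genes, Cdh2 (chr18:16588877-16809246) held the most acetylation for its size. Its covered length was 35392, 38924 and 37531 scaled bp in WT replicates 1 to 3 and 31379, 39276 and 33434 in cKO replicates 1 to 3. The genotypes overlapped, at 37282 ± 1779 in WT and 34696 ± 4097 in cKO (SD, n = 3 each). The log2 difference was -0.11 ± 0.12 (SE; limma adjusted p = 0.834). Its strongest peak, a broad one over the high-coordinate gene end, had a fold enrichment over background of 17.5 to 25.2 in the authors' lists and was stronger than 99.6 to 99.8% of the peaks of its own list. In the other 9 genes the strongest peak ranged from 6.24 to 12.6. The longest region of Cdh2 lay elsewhere, inside the gene, at chr18:16707652-16717314, and is 9663 bp wide. It was covered over 6482, 6371 and 8079 scaled bp in WT and 5928, 9248 and 7158 in cKO, and the cKO values enclosed the WT ones.

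Cdh4 (chr2:179442423-179899377) had the third-lowest fitted difference. Its window also overlaps the gene Taf4, which encodes a subunit of the general transcription factor TFIID. Regions of both genes are not separated in the sum. Covered length was 33708, 30835 and 25552 scaled bp in WT and 27995, 20376 and 26445 in cKO. WT replicate 3 lay below cKO replicates 1 and 3, so the groups overlapped, at 30032 ± 4137 and 24938 ± 4027 (SD, n = 3 each). The log2 difference was -0.27 ± 0.14 (SE; limma adjusted p = 0.591). It was -0.42 within set A and 0.05 within set B, and without cKO replicate 2, the lowest library, it was -0.09. With each list cut to its 48160 strongest peaks (equal-length lists), it was -0.18 (adjusted p = 0.616). The region over the low-coordinate end of Cdh4, at chr2:179441071-179444251, was its longest. The values there were 2441, 2035 and 3473 scaled bp in WT and 2660, 2686 and 3131 in cKO, which overlapped (log2 0.12, limma adjusted p = 0.850).

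Cdh7 (chr1:109982237-110145272), a type II cadherin, had the lowest p of the family. Its covered length was 2761, 2022 and 2463 scaled bp in WT and 1520, 1849 and 1718 in cKO. Every cKO library lay below every WT library, with means of 2415 ± 372 and 1696 ± 166 (SD, n = 3 each). The log2 difference was -0.40 ± 0.13 (SE), with a limma p of 0.00738 and an adjusted p of 0.235. The difference was -0.40 in set A and -0.42 in set B. In equal-length lists it was -0.23 (adjusted p = 0.558), and under a stricter threshold (a -log10 q of 5 or more) it was 0.06 (adjusted p = 0.956).

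The window of Cdh7 held 3 regions, and its difference lay in those away from the start. The start itself, at chr1:109981935-109983826, was covered over 1589, 1367 and 1776 scaled bp in WT and 1520, 1849 and 1718 in cKO. These values interleaved (log2 0.10, limma adjusted p = 0.868). The other region with a peak in more than 1 library lay upstream, at chr1:109971908-109973158, 9078 bp outside the gene, in no annotated protein-coding gene. It was covered over 937, 655 and 687 scaled bp in WT and was listed at 0 in all 3 cKO libraries. It was the only one of the 114 regions tested in the 10 windows that passed (limma adjusted p = 0.00729), as compared with 0.804 percent of all 52627 regions tested (134 longer, 0.255 percent, and 289 shorter, 0.549 percent, in cKO; 353 and 373 in equal-length lists, 162 and 221 under quantile normalization). The region entered the test through its WT values alone, and the cKO values are the same floor in all 3 libraries. The fitted difference of -3.09 ± 0.18 (SE) therefore depends on the 100 bp added, being -4.95 with 25 bp and -1.33 with 500 bp.

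The upstream peaks of Cdh7 were weak. Their fold enrichment in the authors' lists was 3.54, 4.21 and 4.18 in WT replicates 1 to 3, and their -log10 q was 2.70, 4.61 and 3.10, where the lists begin at 1.31 to 1.39. The start peak of Cdh7 had a fold enrichment of 9.90 to 11.1 in the 6 libraries. In equal-length lists the upstream peak was present in 2 of 3 WT libraries (829 and 509 bp, and 0 in replicate 1) and in no cKO library, and no library had it at a -log10 q of at least 5. Without WT replicate 1 the region's adjusted p was 0.0507. The genes whose 6 values, centred on the gene's mean, were most like those of Cdh7 were Lingo2, Umad1 and Il17rb, with root mean square differences of 0.0705, 0.0783 and 0.0793 (log2, over 6 libraries) among the genes tested outside its window.

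**Figure D3:**
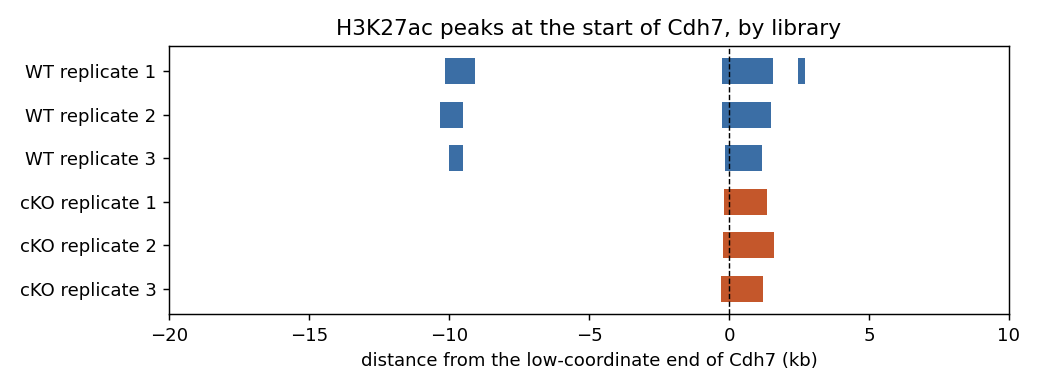
H3K27ac peaks of each library (bars, 3 WT in blue and 3 cKO in orange) from 20 kb outside to 10 kb inside the low-coordinate end of Cdh7 (horizontal axis, kb). All 6 libraries have a peak at the start, and the 3 WT libraries have a second one outside the gene that no cKO list holds.

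Cdh10 (chr15:18818869-19016206), a type II cadherin also known from brain endothelium, was the other gene whose groups did not overlap. Covered length was 5387, 4121 and 4302 scaled bp in WT and 4058, 3042 and 3779 in cKO. The highest cKO library lay just below the lowest WT library, and the means were 4603 ± 684 and 3627 ± 525 (SD, n = 3 each). The log2 difference was -0.31 ± 0.14 (SE), with a limma p of 0.0434 and an adjusted p of 0.479. Within set A it was -0.38, and within set B -0.17. As in Cdh7, the genotypes overlapped at the start, where the region at chr15:18818181-18821482 was covered over 2880, 2276 and 3472 scaled bp in WT and 3209, 2539 and 2760 in cKO (log2 -0.01, limma adjusted p = 0.994). The 6 regions inside the gene summed to 2507, 1846 and 830 scaled bp in WT and 849, 503 and 1020 in cKO. WT replicates 1 and 2 were above the other 4 libraries there, and 4 of these 6 regions were found in 1 library only. In equal-length lists the difference of Cdh10 was -0.20 (adjusted p = 0.504), and it was -0.19 without WT replicate 1 and -0.18 without cKO replicate 2.

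Cdh6 and Cdh8, type II cadherins with area-restricted transcription in the cortex, overlapped between genotypes. Cdh6 (chr15:13028699-13176407) was covered over 5012, 3792 and 3533 scaled bp in WT and 3245, 3648 and 3872 in cKO (log2 -0.16 ± 0.14 SE, limma adjusted p = 0.762). WT replicate 1 stood above the other 5 libraries. Its start region, chr15:13171436-13174689, made up all of the coverage of WT replicate 3 (3533) and was 2577 and 2571 in the other WT libraries and 2556, 2622 and 3223 in cKO. Cdh8 (chr8:99024471-99417666) was covered over 10803, 10445 and 9538 scaled bp in WT and 9968, 8820 and 11323 in cKO (log2 -0.04 ± 0.12 SE, limma adjusted p = 0.940). The highest and the lowest library were both cKO. Its longest region was at the start, chr8:99413751-99418558, with 4037, 3687 and 5916 scaled bp in WT and 4633, 4853 and 5225 in cKO, and WT replicate 3 was highest.

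Cdh11 (chr8:102632095-102785493), a type II cadherin first known from bone and mesenchyme, overlapped between genotypes over its window. It was covered over 11386, 11287 and 10526 scaled bp in WT and 10919, 12373 and 11368 in cKO (log2 0.06 ± 0.11 SE, limma adjusted p = 0.891). Its longest region, at the high-coordinate gene end (chr8:102780036-102787053), was covered over 5587, 5507 and 5253 scaled bp in WT and 6235, 6575 and 7272 in cKO. The cKO libraries were all higher there, but the difference did not pass (log2 0.29 ± 0.14 SE, limma adjusted p = 0.593). The 11 regions inside the gene summed to 5407 ± 213 scaled bp in WT and 4859 ± 865 in cKO (SD, n = 3 each), which overlapped.

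Cdh9 and Cdh12 had the smallest percent of their windows under peaks. In scaled bp, without regard to window length, Cdh12 was above Cdh6, Cdh7 and Cdh10. Cdh9 (chr15:16728550-16857138), which takes part in forming hippocampal mossy fibre synapses, held a single region, at its start (chr15:16728385-16729142). Its lengths were 556, 559 and 844 scaled bp in WT and 573, 756 and 642 in cKO, below the mean of 1000 bp that the test required. The values interleaved, at 653 ± 166 and 657 ± 92.5 (SD, n = 3 each). Cdh12 (chr15:20448878-21598421), whose window also overlaps Acot10, was covered over 5970, 5751 and 7224 scaled bp in WT and 5512, 5657 and 6181 in cKO. The log2 difference of Cdh12 was -0.11 ± 0.11 (SE, limma adjusted p = 0.805). Its longest region lay at the RefSeq start inside the annotated gene span, chr15:21108644-21111875, with 2679, 2116 and 3042 scaled bp in WT and 2342, 2395 and 2652 in cKO, which interleaved. A second, short region inside Cdh12, at chr15:20580613-20580948, was covered over 221, 265 and 258 scaled bp in WT and listed at 0 in all 3 cKO libraries. It was too short to enter the test, and it was also found in all 3 WT and no cKO library in equal-length lists.

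Cdh13 (chr8:118140017-119324929) had the most regions of the 10 genes, 74. Its window also overlaps Hsbp1, which encodes a heat shock factor binding protein. The window was covered over 46473, 42610 and 35051 scaled bp in WT and 44323, 45088 and 39722 in cKO. The lowest library in each genotype was replicate 3, and the groups overlapped (log2 0.06 ± 0.11 SE, limma adjusted p = 0.884). Cdh13 was the only one of the 10 genes with no region over either annotated gene end. The nearest ones were at chr8:118132438-118133626, 6390 bp outside, and at chr8:118147028-118148722, inside the gene. The first, which was chosen after its values were seen, was covered over 388, 364 and 365 scaled bp in WT and 1187, 392 and 1090 in cKO. The second was covered over 1128, 821 and 1064 scaled bp in WT and 1518, 1472 and 1935 in cKO. Every cKO library was higher than every WT library in both, and the second had a log2 difference of 0.66 ± 0.17 (SE; limma adjusted p = 0.413). The longest region of Cdh13, chr8:118283345-118286439, was covered over 2701, 2440 and 3799 scaled bp in WT and 3013, 3087 and 3404 in cKO, which overlapped.

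Merging the peaks of all libraries gave 206 regions in the 10 windows. All 9 regions over a gene end had a peak in all 6 libraries. Inside the genes 72 of 190 regions did, and in the flanks 4 of 7. The matching shares by position over all regions of the genome are not given here. A peak in every list does not mean an equal length in every list. Over all positions, 85 of 206 (41.3%) were in all 6 libraries, as compared with 46.4% of the 85907 regions of the genome, and 54 were in 1 library. Regions found only in WT replicate 1, WT replicate 2 or both, the libraries with the longest lists, numbered 56, or 27.2%, against 20.3% of all regions. Of the 114 regions tested, 58 were longer and 56 shorter in cKO, with a median log2 difference of 0.02 against 0.07 over all regions tested. At an unadjusted limma p below 0.05, 7 were longer and 10 shorter, against 4.63 and 4.73 percent of all regions tested and 9.35 percent in either direction. Groups did not overlap in 12 regions that were longer and 12 that were shorter, against 5.41 and 4.14 percent of all regions. The upstream region of Cdh7 and the short region of Cdh12 were the 2 with a peak in all 3 WT and no cKO library (0.907 percent of all regions), and 0 had the reverse (0.347 percent).

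**Figure D4:**
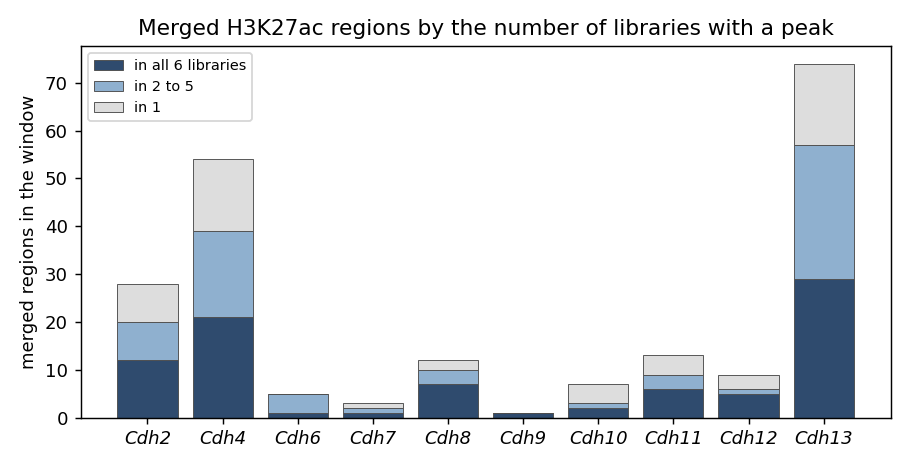
Number of merged H3K27ac regions in each window (vertical axis), split by whether a peak was present in all 6 libraries (dark), in 2 to 5 (medium) or in 1 (light). Cdh13, Cdh4 and Cdh2 hold 74, 54 and 28 of the 206 regions, and Cdh9 holds 1.

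Most regions with an unadjusted limma p below 0.05 lay in Cdh4 and Cdh13, and none of these passed the adjusted threshold. In Cdh4 they were 7 shorter and 1 longer in cKO of the 30 regions tested (4.73 and 4.63 percent over all regions), and 15 of the 30 were longer and 15 shorter. Of the 7 shorter ones, 5 had a cKO mean under the 250 bp that a region needed to be tested, so they entered through WT and the count describes them only. The one with the lowest p, chr2:179580864-179581918, was covered over 832, 743 and 1191 scaled bp in WT and 0, 360 and 0 in cKO. Its log2 difference of -2.60 ± 0.70 (SE; limma adjusted p = 0.426) depends on the 100 bp added, since 2 cKO libraries were listed at 0. In equal-length lists WT replicates 2 and 3 alone kept the peak. A region nearby that had a peak in all 6 libraries, chr2:179533302-179535784, was covered over 2146, 1311 and 770 scaled bp in WT and 518, 221 and 616 in cKO. Its log2 difference was -1.43 ± 0.50 (SE; limma adjusted p = 0.514), and it was chosen after its values were seen. Of the 7, those at chr2:179521812-179523274 and chr2:179530356-179531831, had peaks in WT replicates 1 and 2 and were listed at 0 elsewhere; they too were chosen after their values were seen. In all, 18 of the 54 Cdh4 regions had a peak in one or both of these libraries and nowhere else.

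In Cdh13, 5 of the 39 regions tested were longer in cKO at an unadjusted limma p below 0.05 and 1 was shorter. The shares over all regions tested were 4.63 and 4.73 percent. The median of the 39 was 0.14, against 0.07 over all regions tested. Of the 5 longer ones, 1 had a WT mean under that minimum, and the window as a whole overlapped between genotypes, as above. No test compared Cdh13 with Cdh4. The region at chr8:119155669-119157186 was covered over 352, 575 and 540 scaled bp in WT and 1285, 1449 and 1443 in cKO, with means of 489 ± 120 and 1392 ± 93.2 (SD, n = 3 each). The cKO lengths were far above the WT ones, and the log2 difference was 1.36 ± 0.21 (SE), but the limma adjusted p was 0.136. The strongest peak of the region had a fold enrichment of 5.10, 7.59 and 3.85 in WT and 4.51, 4.62 and 4.02 in cKO. These peaks were shorter in WT than in cKO, so the fold values are of unlike stretches. Whether enrichment differed between genotypes was not tested. In equal-length lists the region had peaks in all 6 libraries, over 403, 485 and 400 bp in WT and 1287, 1410 and 1261 bp in cKO. Under the stricter threshold it had a peak in 2 WT libraries (403 and 485 bp, and 0 in replicate 3) and in 1 cKO library (1410 bp in replicate 2), so the groups overlapped there. A neighbour at chr8:119179932-119181263 was covered over 529, 537 and 217 scaled bp in WT and 813, 1355 and 1254 in cKO (log2 1.27 ± 0.35 SE, limma adjusted p = 0.429). Both lie inside Cdh13 toward its high-coordinate end, where every cKO library was again higher than every WT library. Of the other genes, Cdh7 and Cdh8 each had 1 shorter region at that unadjusted threshold, and Cdh11 had 1 longer region. That of Cdh7 was the upstream region described above.

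**Figure D5:**
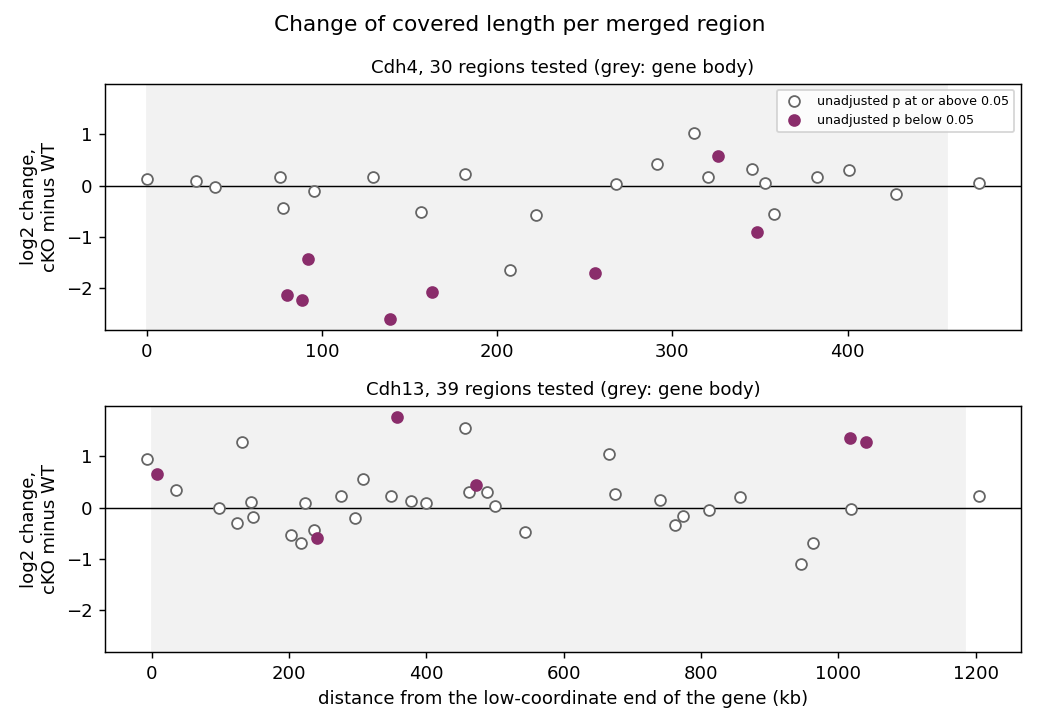
Log2 difference of each tested region (vertical axis, cKO minus WT, scaled bp + 100) against its distance from the low-coordinate end of the gene (horizontal axis, kb) for Cdh4 (30 regions) and Cdh13 (39 regions); filled points have an unadjusted limma p below 0.05 and the grey band is the gene body. Filled points number 7 below and 1 above 0 in Cdh4, and 1 below and 5 above 0 in Cdh13. Over all regions tested, 4.73 percent would be filled below 0 and 4.63 percent above.

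Of 9 further classical cadherins, 5 entered the test, and Cdh20, a type II member on chromosome 1 (chr1:104768340-104995481), was longer in cKO. Covered length was 5270, 6440 and 6182 scaled bp in WT and 8695, 9368 and 9281 in cKO, with means of 5964 ± 614 and 9115 ± 366 (SD, n = 3 each). All cKO libraries lay above all WT libraries, and the log2 difference was 0.58 ± 0.12 (SE; limma adjusted p = 0.0433, against 0.371 percent of all genes called longer). The call was kept in 5 of 19 alternative settings, with log2 differences of 0.47 to 0.65 and adjusted p-values of 0.00953 to 0.806. Cdh24 (log2 0.17, adjusted p = 0.696) and Cdh18 (log2 -0.12, adjusted p = 0.798) followed without passing, and the median of the 5 was 0.11. Cdh1, Cdh3, Cdh15 and Cdh19 were under the minimum covered length.

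All 17 catenins and junction linkers entered the test, 0 passed by limma (0.69 percent of all genes did), 1 had an unadjusted p below 0.05 (9.95 percent of all genes), and the median was 0.07 against 0.05. These shares are near those of all genes. That 1 was Ctnnb1, beta-catenin, which binds the cadherin tail and also carries Wnt signals into the nucleus. The lengths were 9286, 8868 and 8690 scaled bp in WT and 6357, 8852 and 6323 in cKO. The cKO replicate 2 value lay among the WT ones, and the log2 difference was -0.32 ± 0.13 (SE; limma adjusted p = 0.423). The adhesion receptor Nectin1 (log2 0.22, adjusted p = 0.541) and the scaffold Magi2 (log2 0.21, adjusted p = 0.558) had the next lowest p. Of the 10 delta-protocadherins, a family of homophilic adhesion proteins without catenin binding, 0 passed and 0 had an unadjusted limma p below 0.05, beside the same 0.69 and 9.95 percent. The lowest p-values there were those of Pcdh19 (log2 0.14, adjusted p = 0.770), Pcdh10 (log2 0.14, adjusted p = 0.794) and Pcdh9 (log2 -0.12, adjusted p = 0.821), and the median was 0.02.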

How the data were processed

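Per the labels' protocols, micrococcal nuclease was used on native chromatin of E15.5 cortex before H3K27ac precipitation, and libraries were amplified for 11 cycles and selected for fragments of 100 to 800 bp. The submitters' processing notes name FastQC, cutadapt, Bowtie2 2.2.8, MACS2 2.1.1 and mm10. The authors deposited 1 broad peak list per library, with a fold enrichment (a ratio), a -log10 p and a -log10 q per peak; how the 6 input libraries were used is not given in the sources used here, and the inputs were not analysed here. The fold and -log10 values are the authors' and were used only to describe or filter peaks within a list.

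Bases under peaks were summed over each gene body plus 20 kb, with gene positions from RefSeq (GRCm38.p6), and scaled to the mean genome-wide total of the 6 lists. The log2(scaled bp + 500) values of genes with a mean of at least 1000 bp were fitted with limma 3.58.1 (R 4.3.3, Python 3.11.15), with library set as covariate and Benjamini-Hochberg adjustment over all genes, and called at an adjusted p below 0.05. Peaks that overlapped or touched were merged into regions, fitted likewise with 100 bp added and a mean of at least 250 bp. Both fits were tested on simulated data, drawn with normal noise around each mean with the residual spread of the real values. The simulation had no difference between library sets and no floor. Its recovery therefore does not describe regions that some lists lack, such as the one upstream of Cdh7. The gene fit recovered 17 of 67 planted differences of log2 0.5 and 55 of 67 of log2 1. The region fit recovered 1 of 67 of log2 1, 20 of 67 of log2 2 and 41 of 66 of log2 4. Most planted differences of the smallest size were thus missed by both fits. The members and lists were chosen with earlier results of these data known. Named were all 10 cadherin genes, the 3 genes with the lowest p of each other adhesion list, the longest region of each gene, every called region, the 5 regions with the lowest p, every region found in all libraries of 1 genotype only, and the 3 genes most like the cadherin gene with the lowest p. Alternatives varied the peak threshold, list length, scaling, pseudocount, minimum, window, covariate and replicates.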

Additional observations from a re-analysis of the deposited data

How the results depend on the processing

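None of the 10 cadherin genes passed in any alternative; the lowest adjusted p was 0.0656, for Cdh10 with 100 kb of flank. The count of genes called (106) was 38 under the stricter q threshold (5 on the -log10 scale), 58 in equal-length lists, 39 without the library set covariate, 168 with the replicate block, 23 with no minimum, 1 with no scaling, 22 with quantile normalization, 39 and 208 with 100 and 2000 bp added, 42 for the gene body only, and 42 when scaled to the sum over gene windows, which was chosen after seeing the data; leaving out a replicate gave 2 to 232 (2 without WT replicate 2, WT replicate 3 or cKO replicate 3). The count of regions (423) was 726 in equal-length lists and 0 with the replicate block (3773 at an unadjusted limma p below 0.05), and ranged from 0 without WT replicate 1 (3066 unadjusted) to 900 without WT replicate 3. Beyond the library set, replicates of the same number share only that number in their labels. Same-number correlations of deviations were 0.132, 0.0629 and 0.261 for replicates 1 to 3. The value of replicate 3, which is set B in both genotypes, was the highest of all pairs. WT replicates 1 and 2 both correlated best with cKO replicate 1 (0.132 and 0.167). With the block the upstream region of Cdh7 had an adjusted p of 0.0525. The count of regions in the windows with peaks in all WT and no cKO libraries (2) was 1 under the stricter threshold, which was neither of the 2 named above, and 2 to 15 when a replicate was left out (15 without WT replicate 3), and the reverse count of 0 became 1 at that threshold, 1 in equal-length lists and 0 to 1 when a replicate was left out. Within 2 kb of the gene ends the differences reversed to 0.065 (Cdh2), 0.10 (Cdh4), 0.082 (Cdh7), 0.13 (Cdh8) and 0.021 (Cdh10). Under the stricter threshold Cdh6 was 0.20 and Cdh7 0.058, and for the gene body only Cdh7 was 0.000425. Cdh8 was 0.044 in equal-length lists and ranged from -0.17 without WT replicate 3 to 0.051 without cKO replicate 2, positive also without WT replicate 1. With no scaling Cdh11 was -0.050 and Cdh13 -0.047, and with 100 kb of flank Cdh11 was -0.022. The cause was not tested.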
